A study of Mus musculus with 6 samples.

Results

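In biliary epithelial cells of Sox9cKO mice, the apolipoprotein genes and Mttp did not move as one set. Apob, the gene of the structural protein of very low density lipoproteins, was 8.15 times as high as in Control cells and Apoc1 was at 34.4% of its Control level, while Apoa1, Apoa2, Apoc3 and Apom had overlapping groups. The 9 genes examined were Apob, Apoa1, Apoa2, Apoc1, Apoc3, Apoe, Apoh, Apom and Mttp, taken by symbol from a table of 25302 features, and all 9 were present. They were selected with the Control and Sox9cKO values of this table in view, so their differences between the groups are described with their errors and carry no test.

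Apolipoproteins are the protein coats of the lipid particles that carry triglyceride and cholesterol through blood. Particle assembly begins in the endoplasmic reticulum of hepatocytes and enterocytes, where the microsomal triglyceride transfer protein, encoded by Mttp, loads lipid onto the growing ApoB chain, and exchangeable apolipoproteins (the A, C and E classes) join the particle later and steer its enzymes and receptors. In the liver these genes are known above all as genes of hepatocytes, with Apoe transcribed by macrophages as well.

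The samples were total RNA from liver biliary epithelial cells, 3 labelled Control with the genotype Sox9fl/fl and 3 labelled Sox9cKO with the genotype Sox9fl/fl:AlbCre+/-. All 6 thus carried floxed alleles of Sox9, the gene of a transcription factor of bile duct cells, and only the Sox9cKO samples carried Cre, here under the albumin promoter, so deletion of Sox9 and presence of Cre cannot be told apart. That promoter is also active in hepatocytes and in the fetal hepatoblasts from which both cell types arise. The labels give no age and do not say whether samples were separate animals, so errors and p-values measure the spread between these samples.

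Reads assigned to genes numbered between 11883496 and 16191990 per sample. Sox9 itself was at 6043 to 6293 normalized counts (read numbers scaled by each library's size factor) in Control and at 3165 to 3363 in Sox9cKO, so each library followed its label while the transcript was still present. Krt19, a keratin of bile ducts, lay between 11480 and 12338 in Control and between 12666 and 26648 in Sox9cKO (limma adjusted p = 0.292). Epcam, an epithelial adhesion gene, lay between 6559 and 7796 in Control and between 5501 and 8249 in Sox9cKO. The presence of both genes in every sample fits the labelled cell type. The samples also held endothelial transcripts in very unequal amounts: the summed level of 10 endothelial markers was 16432, 52810 and 2434 in the Control samples, in the order of their replicate numbers, and 41467, 54601 and 8985 in the Sox9cKO samples.

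Apob stood apart from the other members by the size of its difference. Its normalized counts were 3312, 2241 and 2584 in the Control samples and 16585, 17183 and 32564 in the Sox9cKO samples. Every Sox9cKO sample thus lay above every Control sample, and Sox9cKO replicate 3 was the highest by far. The means were 2712 ± 547 and 22111 ± 9058 (SD, n = 3 per group), an 8.15-fold difference and a log2 fold change of 2.97 with a standard error of 0.28 on log2(value + 1). Leaving out 1 sample at a time moved this log2 fold change between 2.66 and 3.14.

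Mttp, whose product Apob needs for lipid loading, was far less different. It had 95.0, 123 and 126 normalized counts in Control and 155, 169 and 170 in Sox9cKO (means 115 ± 17.1 and 165 ± 8.25, SD, n = 3). The groups did not overlap, but the gap between them was small, with a log2 fold change of 0.53 and a standard error of 0.18. For each normalized count of Mttp there were 18.2 to 34.9 of Apob in Control and 102 to 192 in Sox9cKO. In the reference annotation an exon of Trmt10a, a tRNA methyltransferase gene, overlaps Mttp on the opposite strand, and whether the counting used strand is not given in the sources used here. Trmt10a itself had 148 to 183 normalized counts in Control and 164 to 200.4 in Sox9cKO.

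**Figure D1:**
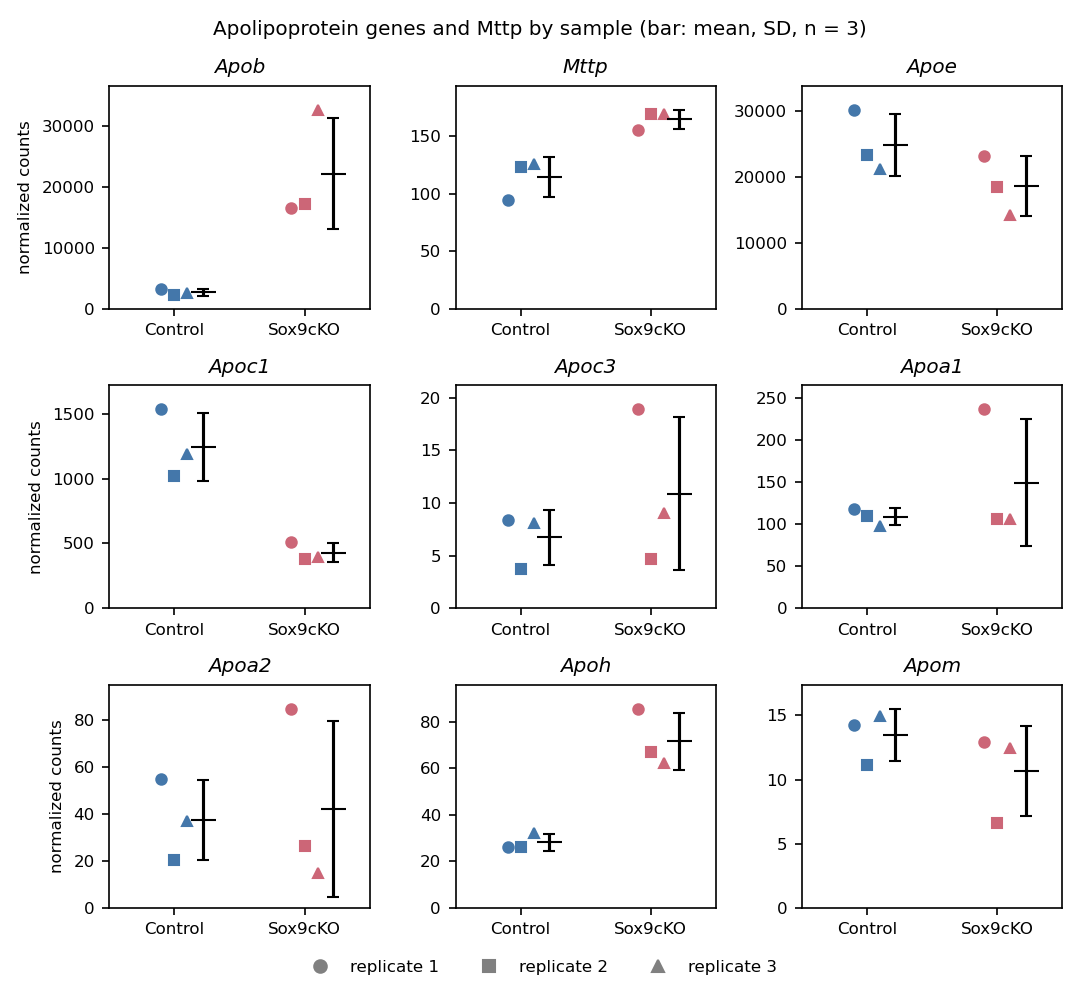
Normalized counts of the 9 genes in each sample (vertical axes, each starting at 0 with its own scale), with Control on the left and Sox9cKO on the right of every panel; symbols mark the replicate number and black bars the mean and SD (n = 3). The groups are separate in Apob, Mttp, Apoc1 and Apoh and overlap in the other 5 genes.

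The promoters of the members called higher in the fit over all genes, Apob and Apoh, are shown because hepatocyte nuclear factor 4 alpha, a nuclear receptor of liver and bile duct cells, is a well-known activator of apolipoprotein genes. Each line runs 5′ to 3′ over the 150 bases before the start site, from RefSeq on GRCm38.p6, at chr12:7977527-7977676 (plus strand) for Apob and chr11:108395147-108395296 (plus strand) for Apoh. Capitals mark a match on either strand to CAAAGNNCA, a motif of the kind bound by that receptor.
Apob: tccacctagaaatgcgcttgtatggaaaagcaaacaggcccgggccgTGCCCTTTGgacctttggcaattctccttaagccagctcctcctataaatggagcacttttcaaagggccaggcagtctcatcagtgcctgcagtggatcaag
Apoh: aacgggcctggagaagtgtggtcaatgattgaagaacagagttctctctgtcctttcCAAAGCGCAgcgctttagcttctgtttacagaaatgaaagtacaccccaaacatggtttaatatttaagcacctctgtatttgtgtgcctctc

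Windows of 300 bases, from 250 before to 50 after a start site, were at hand for 7 of the 9 genes, in 10 windows. CAAAGNNCA matched in the windows of Apob (bases -103 to -95) and Apoh (bases -93 to -85) and in no window of Apoa1, Apoa2, Apoe, Apom or Mttp, against 6.36% of 32851 mouse promoter windows. TTGCNNAA, a motif of C/EBP factors, matched in Apob and at 2 places in 1 window of Apoa2, against 10.8% of all windows. The SOX-type letters ACAATG matched in 1 window of Apoe, against 12.6%. These matches describe letters in a window and do not show binding. A gene without an exact match can still have a site with other letters or one outside the window. Apob and Apoh were picked by their calls in these same data, so nothing is read from the motif that they share. None of the matches overlapped another in the Apob or Apoh window.

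Apoe and Apoc1 are neighbours in 1 gene cluster, together with Apoc4 and Apoc2. ApoE is the ligand by which remnant particles are taken up by cells, and ApoC1 slows that uptake. Apoe was the most abundant member, with 30143, 23299.5 and 21182 normalized counts in Control and 23152, 18443 and 14156 in Sox9cKO. Sox9cKO replicate 1 lay within the Control range, so the groups overlapped, and the means were 24875 ± 4684 and 18584 ± 4500 (SD, n = 3; log2 fold change -0.43, standard error 0.22).

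Apoc1 had 1535, 1020.0 and 1189 normalized counts in Control and 511, 381 and 394 in Sox9cKO. All 3 Control samples thus lay far above the Sox9cKO samples, with means of 1248 ± 262 in Control and 429 ± 71.9 in Sox9cKO (SD, n = 3; log2 fold change -1.53, standard error 0.19). Relative to its neighbour Apoe in the same sample, Apoc1 gave 0.0438 to 0.0561 normalized counts per count of Apoe in Control and 0.0207 to 0.0278 in Sox9cKO. Apoc4, which encodes a minor apolipoprotein of the same cluster, had 10.9, 21.3 and 9.22 normalized counts in Control and 11.9, 5.67 and 1.13 in Sox9cKO and was not called (limma, adjusted p = 0.409). Apoc2 was not analysed here.

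Macrophages of the liver also transcribe Apoe and Apoc1, so their markers were set beside these genes. Of 14 macrophage markers 10 were tested, Csf1r rose (log2 fold change 0.92, limma adjusted p = 0.0142) and no other was called. With the replicate block Lyz2, a lysozyme gene, was called lower as well (log2 fold change -1.33, limma adjusted p = 0.0417, against 0.243 without the block). It had 38.7, 65.9 and 21.9 normalized counts in Control and 16.9, 22.7 and 7.92 in Sox9cKO, with overlapping groups. Without Csf1r, the 9 tested markers had log2 fold changes between -1.95 and 0.083, with a median of -0.45. In 3 of these 9 all Sox9cKO samples lay below all Control samples, against 10.8% of all tested genes. Of the 9, 3 had an unadjusted limma p under 0.05, against 3047 of all 17153 tested genes. The summed level of the 13 markers other than Csf1r was 271 to 536 in Control and 188 to 367 in Sox9cKO. Marco and Tyrobp were at 0 in at least 1 Sox9cKO sample. The Kupffer cell marker Clec4f had 82.4, 49.2 and 13.8 normalized counts in Control and 56.7, 30.2 and 12.5 in Sox9cKO, with overlapping groups. The part of macrophage RNA in the Apoe and Apoc1 levels was not tested. In bulk RNA, fewer cells of a type and less RNA per cell cannot be told apart.

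Apoa1 and Apoc3 sit in a second cluster with Apoa4 and Apoa5. ApoA1 is the main protein of high density lipoproteins and ApoC3 an inhibitor of lipoprotein lipase. Apoa1 had 119, 110.4 and 97.9 normalized counts in Control and 237, 106 and 106 in Sox9cKO. Only Sox9cKO replicate 1 was above the Control range. On the log2 scale the difference was 0.35 (standard error 0.33), and -0.033 without that library.

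Apoc3 was close to the limit of detection, with 10, 4 and 7 reads in Control and 19, 5 and 8 in Sox9cKO, and its mean was under the 10 normalized counts set for testing. Again Sox9cKO replicate 1 was the highest and the other samples overlapped. The neighbours Apoa4 and Apoa5, genes of apolipoproteins of triglyceride-rich particles, had means of 14.4 ± 7.11 and 13.5 ± 0.732 in Control and 7.97 ± 3.63 and 14.1 ± 11.9 in Sox9cKO (SD, n = 3). Neither was called (limma, adjusted p = 0.55 and 0.89).

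Apoa2, which encodes the other abundant protein of high density lipoproteins, had 54.6, 20.4 and 36.9 normalized counts in Control and 84.6, 26.5 and 14.7 in Sox9cKO. Replicate 1 was highest in both groups and the groups overlapped fully. Its log2 fold change of -0.096 had a standard error of 0.65 and ranged from -0.78 without Sox9cKO replicate 1 to 0.45 without Sox9cKO replicate 3, so its direction rested on single libraries.

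Apoh encodes a phospholipid-binding plasma protein that travels partly on lipoproteins. It had 26.1, 26.0 and 32.3 normalized counts in Control and 85.6, 67.1 and 62.3 in Sox9cKO (means 28.1 ± 3.60 and 71.6 ± 12.3, SD, n = 3). The groups were well apart, with a log2 fold change of 1.31 and a standard error of 0.25, at 28 to 86 reads per sample. An exon of Prkca, a protein kinase C gene, overlaps Apoh on the opposite strand in the reference annotation, and reads of the 2 genes could be mixed if the counting ignored strand. Prkca had 758, 1001 and 1543 normalized counts in Control and 1638, 1304 and 2003 in Sox9cKO, with overlapping groups (log2 fold change 0.62).

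Apom encodes the carrier of sphingosine-1-phosphate on high density lipoproteins. It had 14.3, 11.1 and 14.98 normalized counts in Control and 12.9, 6.62 and 12.5 in Sox9cKO. These are 7 to 17 reads per sample, and the groups overlapped (log2 fold change -0.35, standard error 0.40).

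Of the 9 members 8 had enough reads to enter the fit over all genes. In that fit (limma, Benjamini-Hochberg adjusted p under 0.05 over 17153 tested genes) 3 of the 8 were called, Apob and Apoh higher and Apoc1 lower, where 2.97% of all tested genes were called (2.03% higher and 0.939% lower). The call of Apoh was lost without any 1 of the 6 samples and with quantile normalization. Groups did not overlap in 4 members, 3 higher and 1 lower, where 24.2% of all tested genes had groups that do not overlap (13.4% higher and 10.8% lower). The median log2 fold change of the 8 was 0.13, against 0.036 over all tested genes. Because the members were chosen on this contrast, nothing is read from these counts.

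Levels of different genes were compared per exon length (GENCODE M21), in normalized counts per kb. In Control the order was Apoe (11635), Apoc1 (1677), Apob (195), Apoa1 (88.2), Apoa2 (69.5), Mttp (18.5), Apoh (17.6), Apom (13.3) and Apoc3 (6.63). The Control samples of Apoa1 and Apoa2 overlapped in level, as did those of Mttp and Apoh, while the other neighbours in this order did not overlap. In Sox9cKO Apob (1587 per kb) was above Apoc1 (576 per kb), and Apoh (44.9 per kb) was above Mttp (26.5 per kb). Apoe was 59.8 times as high as Apob per kb in Control and 5.48 times in Sox9cKO.

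**Figure D2:**
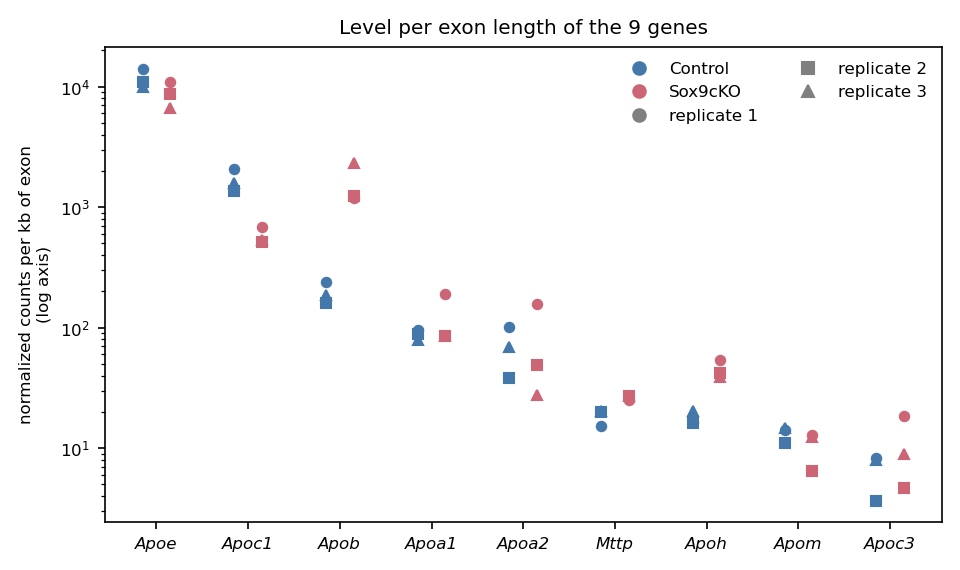
Normalized counts per kb of exon for the 9 genes (log axis), ordered by their Control mean; blue symbols are the 3 Control and red symbols the 3 Sox9cKO samples. Apob moves from 195 to 1587 per kb and passes Apoc1, which moves from 1677 to 576 per kb.

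The wider pathway was followed with 96 other genes of lipoprotein metabolism, listed by role. Of these, 86 were tested and 5 were called with limma, 4 higher and 1 lower in Sox9cKO, beside the 2.97% called among all tested genes. With the replicate number as a block, 18 were called, 16 higher and 2 lower, where 8.05% of all tested genes were called. The median log2 fold change of the 86 was 0.17.

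Without the block, assembly and secretion held 4 of the 5 calls, with 3 of 21 tested genes higher and 1 lower. With the block this list held 5 of the 18 calls, and receptors and uptake held 7. Creb3l3, the gene of a membrane-bound transcription factor of the liver that acts on lipid genes, rose from 72.3, 42.7 and 64.5 normalized counts to 248.7, 163 and 220 (log2 fold change 1.81, standard error 0.27, limma adjusted p = 0.0156). Cideb, whose product helps lipid onto very low density lipoproteins, rose from 84.2 ± 6.91 to 195 ± 44.2 (SD, n = 3; log2 fold change 1.18, limma adjusted p = 0.0363). A1cf, which encodes a cofactor of the editing of Apob mRNA, rose from 7.57, 15.8 and 4.61 to 42.8, 38.7 and 50.9 (log2 fold change 2.27, standard error 0.45, limma adjusted p = 0.046). The editing enzyme gene Apobec1, named after its values were seen, had 327, 458 and 510 normalized counts in Control and 320, 563 and 368 in Sox9cKO, with overlapping groups.

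Ces1d, the gene of a lipase that frees stored triglyceride for secretion, went the other way and fell from 2117, 1629 and 1696 to 823, 501 and 665 (log2 fold change -1.47, standard error 0.20, limma adjusted p = 0.0122). It belongs to a family of similar carboxylesterase genes, among which reads may be split. The calls of Ces1d, Creb3l3, Cideb and A1cf were each lost in some fits that left out 1 sample. Such fits have fewer samples and called 200 to 389 genes in all, against 510 with every sample. In them the log2 fold change lay between -1.64 and -1.28 for Ces1d and between 1.59 and 1.98 for Creb3l3. It lay between 1.03 and 1.37 for Cideb and between 1.90 and 2.69 for A1cf. Cideb lost its call without Control replicate 1, 2 or 3 or Sox9cKO replicate 1 or 3 (adjusted p up to 0.122), and A1cf without any 1 of 5 samples, all but Control replicate 2 (up to 0.17). Creb3l3 lost it without Control replicate 3 or Sox9cKO replicate 1 or 3 (up to 0.0609), and Ces1d without Control replicate 1 or 3 (up to 0.0668). Among the other settings, Cideb lost its call with quantile normalization and without the intensity trend, and A1cf with a pseudocount of 0.1, TMM scaling, no intensity trend and edgeR (limma or edgeR adjusted p between 0.0506 and 0.0567). The chaperone gene P4hb, which encodes the partner subunit of Mttp, and the transport gene Sar1b were not called (log2 fold changes 0.35 and 0.24).

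In remodelling and efflux, 1 of 13 tested genes was called. Angptl4, which encodes a secreted inhibitor of lipoprotein lipase, rose from 159, 121 and 128 normalized counts to 386, 342 and 391 (log2 fold change 1.46, standard error 0.16, limma adjusted p = 0.00609). Its 2 groups were far apart and its call held when any 1 sample was left out. Lpl, the lipase gene itself, named after its values were seen, had 154, 85.4 and 63.4 in Control and 479, 189 and 256 in Sox9cKO and was called with the replicate block (limma adjusted p = 0.11, or 0.00698 with the block).

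Among receptors and uptake genes, none of 16 tested was called with limma or edgeR, while 7 had an unadjusted limma p under 0.05. Over all 17153 tested genes, 3047 had such a p, limma with the replicate block called 1381 and DESeq2 called 1214. With the replicate block limma called 7 of the 16, all of them higher, and DESeq2 called 5 without the block. Among the 7 were Vldlr, Lrp1, Lrp2, Cd36, Sdc1 and Cubn. Cd36, the gene of a fatty acid and lipoprotein receptor that liver endothelium also transcribes, had the largest log2 fold change (3.14, standard error 0.64, limma adjusted p = 0.0504, or 0.0135 with the block). It had 363, 532 and 77.2 normalized counts in Control and 2166, 2149 and 2223 in Sox9cKO, so the Control samples followed the order of their endothelial sums and the Sox9cKO samples did not. The part of endothelial RNA in it was not tested.

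Of 18 other listed apolipoprotein genes 11 were tested, and none was called with limma, with or without the block, with edgeR or with DESeq2, nor had one an unadjusted p under 0.05. Their log2 fold changes lay between -1.37 and 1.05. Clu, the gene of apolipoprotein J, was the most abundant of them, with 95323 to 114290 normalized counts in Control and 81918 to 108413 in Sox9cKO.

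**Figure D3:**
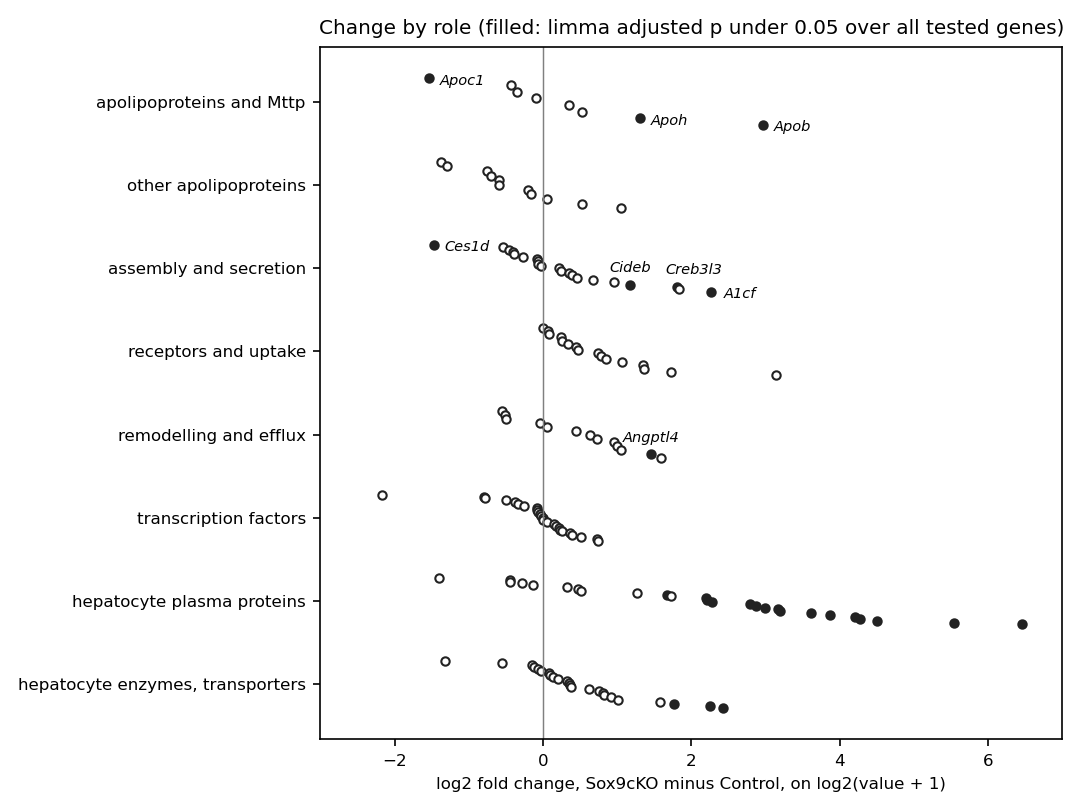
Log2 fold change (Sox9cKO minus Control, horizontal axis) of each tested gene, by list; filled points had a limma adjusted p under 0.05 over all tested genes. Among the members Apob, Apoh and Apoc1 are filled, and 16 of 26 hepatocyte plasma protein genes are filled, all to the right of 0.

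Transcription factors known to act on apolipoprotein promoters had a median log2 fold change of 0.0011. None of the 25 tested was called with limma or edgeR, and DESeq2 called 4, against 1214 of all 17153 tested genes. An unadjusted limma p was under 0.05 in 6 of the 25, against 3047 of the 17153. With the replicate block limma called 3, among them Hnf4a and Onecut2, both higher. Hnf4a had 5329, 3802 and 6320 normalized counts in Control and 10056, 6994 and 8629 in Sox9cKO (log2 fold change 0.75, standard error 0.22, limma adjusted p = 0.131, or 0.017 with the block). All Sox9cKO samples of Hnf4a lay above all Control samples. Nr0b2, the gene of a repressor that lacks a DNA-binding domain, had the lowest log2 fold change of the list (-2.17, limma adjusted p = 0.0747).

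Hepatocyte genes were set beside the members, since hepatocyte RNA would bring apolipoprotein transcripts with it. They behaved unequally by kind. Of 26 plasma protein genes other than the members, 16 rose and none fell (limma), with a median log2 fold change of 2.25. Examples were Gc (vitamin D binding protein, log2 fold change 4.27), Fgb (fibrinogen beta chain, 3.62), Hp (haptoglobin, 6.46) and Serpina1b (an antitrypsin paralog whose reads may be shared with its copies, 5.55), with limma adjusted p between 0.000176 and 0.00327. Over all tested genes 2.03% were called higher and 0.939% lower. In 2 of the 26, Amy1 and Serpinc1, all Sox9cKO samples lay below all Control samples, at 39.2% and 74.4% of the Control mean. DESeq2 called 17 of the 26 higher and 1 lower. The list was chosen with earlier results of these data known, so nothing is read from these counts. The summed level of the 26 was 43989 to 73798 in Control and 169322 to 176896 in Sox9cKO. Most of the Sox9cKO sum came from C3, with a mean of 107387. Without Alb and C3 the sum was 10307 to 14834.5 in Control and 34269 to 39705 in Sox9cKO. C3, Alb and Ambp had the highest Control means among them, and of these C3 rose (log2 fold change 2.22, limma adjusted p = 0.00512) and Ambp was not called (log2 fold change 0.33).

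Of 24 tested genes of hepatocyte enzymes and transporters, 3 rose, namely Tat, Bhmt and Tdo2, which encode enzymes of amino acid breakdown, and none fell. Their log2 fold changes were 2.26, 2.43 and 1.76 (limma adjusted p = 0.00726, 0.0268 and 0.0321). Without Control replicate 1 or any 1 Sox9cKO sample only Tat was called. Bhmt then had adjusted p of up to 0.0866 in limma, and Tdo2 lost its call without any 1 of the 6 samples (up to 0.117). The median over the 24 was 0.36, and with the replicate block 5 were called, 4 higher and 1 lower. Over all tested genes 2.97% were called without the block and 8.05% with it. The summed level of this list was 6501 to 8149 in Control and 6485 to 9269 in Sox9cKO, so the groups overlapped. Glul, the glutamine synthetase gene, was among the 3 genes with the highest Control means in the list and was not called (log2 fold change -0.069). None of the 25 listed genes present in the table was at 0 in any sample, and Cyp7a1 was not analysed here.

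Alb, the albumin gene and a defining transcript of hepatocytes, had 27683, 17384 and 18944 normalized counts in Control and 32147, 21399 and 35363 in Sox9cKO, with overlapping groups (log2 fold change 0.47, standard error 0.25, limma adjusted p = 0.38). For each count of Alb there were 0.120, 0.129 and 0.136 counts of Apob in Control and 0.516, 0.803 and 0.921 in Sox9cKO. The ratio was thus higher in every Sox9cKO sample, as Apob differed more than Alb. The ratio of Apoa1 to Alb showed no such separation, at 0.00428 to 0.00635 in Control and 0.00301 to 0.00737 in Sox9cKO. Nor did that of Mttp to Alb, at 0.00343 to 0.00710 in Control and 0.00480 to 0.00791 in Sox9cKO. For Ttr, a plasma protein gene named after its values were seen, the ratio to Alb was lower in every Sox9cKO sample. It was 0.0599 to 0.0666 in Control and 0.0256 to 0.0494 in Sox9cKO.

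Sox9cKO replicate 1 had the highest level of all 6 samples in 4 of the 9 members (Apoa1, Apoa2, Apoc3 and Apoh) and in 23.3% of all tested genes. It was also the highest in 11 of 24 tested hepatocyte enzyme and transporter genes, 11 of 26 plasma protein genes, 7 of 17 biliary markers and 5 of 10 stellate and mesenchymal markers. The part of hepatocyte RNA in the members' levels was not tested. The log2 fold change of Apob without that library was 3.14.

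The genes whose profile over the 6 samples was most like that of Apob were sought by the root mean square difference of log2(value + 1) values, each centred on the gene's Control mean. The 6 nearest were Eya4 (0.22), Pzp (0.27), Cnksr2 (0.36), Fgg (0.37), Plg (0.37) and Bend6 (0.41). Pzp, Fgg and Plg encode secreted plasma proteins (an alpha-macroglobulin, the fibrinogen gamma chain and plasminogen), Eya4 a transcriptional coactivator and phosphatase, and Cnksr2 a signalling scaffold. Pzp had 946, 715 and 974 normalized counts in Control and 7118, 7627 and 9987 in Sox9cKO, and Eya4 had 65.6, 30.6 and 54.1 against 361, 288 and 583. No Control sample had more than 3 reads of Bend6. The nearest member was Apoh (1.26) and the farthest Apoc1 (3.21).

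**Figure D4:**
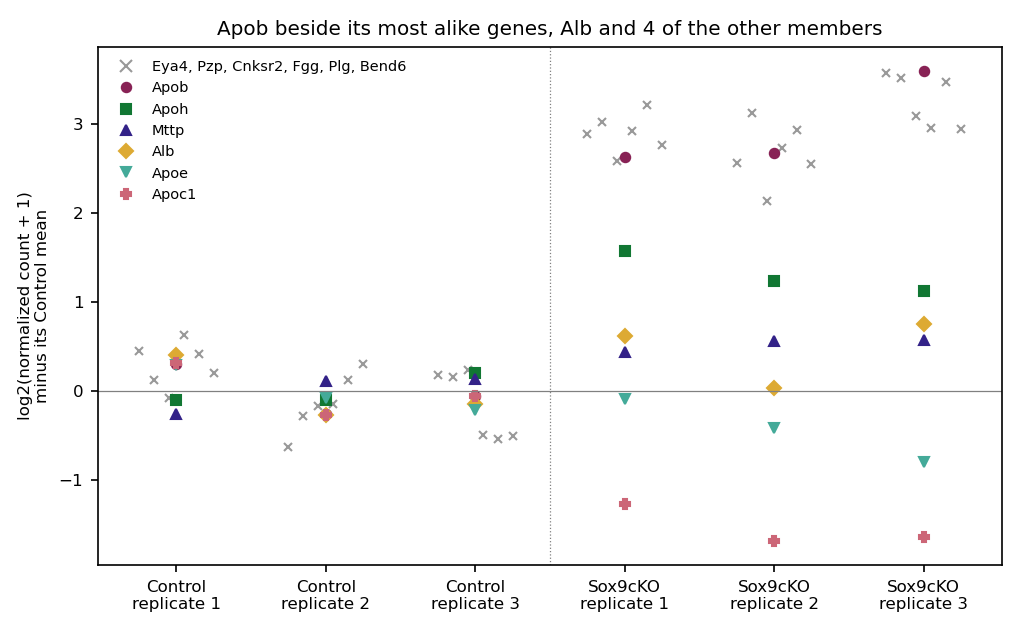
Log2(normalized count + 1) minus the Control mean of the gene (vertical axis) in each of the 6 samples, for Apob, 4 of the other members, Alb and the 6 genes most like Apob (grey crosses). Apob lies with the grey crosses in all Sox9cKO samples, Alb and Mttp stay within 1 of their Control mean, and Apoc1 lies below 0 in all Sox9cKO samples.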

How the data were processed

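The authors deposited 1 signal table of normalized gene counts, whose values step in units of 1 read in each sample (100% whole within 0.001 reads), and the reads recovered from these steps were used for depth. The factors equalled DESeq2 size factors computed from those reads, between 0.868 and 1.19. DESeq2 1.36.0 and GRCm39 are named in the submitters' processing notes, with no role. The aligner, counter, use of molecular identifiers and use of strand are not given in the sources used here, so PCR duplicates may remain. No coordinates of the table are given, since the annotation at hand was GENCODE M21 and RefSeq on GRCm38. It supplied exon lengths (98.1% of rows matched), gene overlaps and promoters. Genes with a mean of at least 10 over the 6 samples were tested on log2(value + 1) with limma 3.58.1 in R 4.3.3 (intensity trend, two-sided, Benjamini-Hochberg threshold 0.05). The pseudocount understates changes of low genes. The fit had no replicate block. Replicate numbers come from the titles, and same-numbered samples deviated together (correlations across genes of 0.207, 0.472 and 0.542), so a fit with the number as a block is given where it changes a call. The calculations were tested on simulated data. Alternatives used edgeR 4.0.16 and DESeq2 1.42.0 on the reads, other pseudocounts, filters and scalings, and each sample left out.

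The members and lists were chosen with earlier results of these data known. Named genes were the members, their cluster neighbours, Sox9, Hnf4a, Alb, at most 4 called genes per pathway or hepatocyte list by p-value, the 3 highest in Control per hepatocyte list, and the 6 genes most like Apob, and some genes that this rule names are not reported here. The stellate and mesenchymal markers (10 tested) and the biliary markers (17 tested) had 0 and 2 calls with limma, with 0 and 4 unadjusted p under 0.05, 0 and 2 calls by edgeR and by DESeq2. The 10 endothelial markers had 0 calls with limma, edgeR and DESeq2 and 1 unadjusted p under 0.05. Over all 17153 tested genes, 3047 had an unadjusted limma p under 0.05. The 2 biliary calls with limma were Krt7 (higher, adjusted p = 0.0408) and Ggt1 (lower, adjusted p = 0.0398). With the replicate block, limma called 4 biliary markers (Krt7 higher, Ggt1, Spp1 and Pkhd1 lower), 1 endothelial marker (Vwf, higher) and 0 stellate markers.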

Additional observations from a re-analysis of the deposited data

How the results depend on the processing

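Counts of called genes depended most on the replicate number. With the replicate block, limma called 1381 genes in all and 18 of the pathway lists, against 510 and 5 without it, and edgeR with the replicate block called 1160 and 18. DESeq2 called 1214 and 15. The 510 and the 5 were included in each of these larger sets. Without the intensity trend, 3 pathway genes were called. The cause was not tested. Leaving out 1 sample gave 200 to 389 genes and 2 to 6 pathway genes, with fewer samples in each such fit, with 200, 210, 337 and 280 genes without Control replicates 1 and 3 and Sox9cKO replicates 2 and 3, and 2 or 3 pathway genes without Control replicate 1 or 3 or Sox9cKO replicate 1 or 3. Among members the replicate block changed no call. Members called numbered 2 or 3 under every alternative, Apob and Apoc1 in all of them. The members were chosen on this contrast, so nothing is read from calls that held. The median over all tested genes was at a log2 fold change of 0.036, or -0.0077 with TMM and -0.031 with quantile scaling.

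Of 630 recomputed log2 fold changes of 38 genes, 11 changed sign, all of genes that were not called. Apoa2 (-0.096) was positive with edgeR (0.12), DESeq2 (0.13) and without Control replicate 1 (0.23), Sox9cKO replicate 2 (0.043) or Sox9cKO replicate 3 (0.45), and Apoa1 was negative without Sox9cKO replicate 1 (-0.033). Apoa5, -0.21 and not called, was at 0.0278 with edgeR and 0.0309 with DESeq2, and between -0.81 and 0.15 when 1 sample was left out (0.152 without Sox9cKO replicate 2, 0.0379 without Sox9cKO replicate 3). Glul, also not called, was at 0.0134 without Control replicate 2 and at -0.19 to 0.013 over the samples left out. The cause was not tested. Hepatocyte enzyme and transporter genes called numbered 3, or 5 with the replicate block and with DESeq2, and 1 or 2 without 1 sample. Apoc3, Apom, Apoa2 and Apoh rest on at most 86 reads per sample, and Apoc3 was too low to be tested.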
